A study of Gallus gallus with 5 samples.

Results

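To ask how the cells around a graft differ with the age of the grafted tissue, host cells of HH8-HH4 grafts were compared with host cells of HH4-HH4 grafts 3 hr after grafting. A host cell is a cell barcode with at least 2000 unique molecular identifiers (UMIs, counted RNA molecules) and 0 UMIs of eGFP, the marker of the donor line. This gave 232 host cells beside HH8 grafts and 181 beside HH4 grafts, 413 of the 8039 barcodes in the 4 libraries used. In HH8-HH4 grafts, somite progenitors of the primitive streak from eGFP-expressing chicken embryos at Hamburger-Hamilton stage 8 were placed in the streak of a wild-type HH4 embryo. In HH4-HH4 grafts, the same region of an eGFP-expressing HH4 embryo was placed in a wild-type HH4 embryo, so that every host was wild type and at HH4 when grafted. The region around the eGFP-positive cells was cut out at once (0 hr) or after 3 hr of culture, and several embryos were pooled into 1 single-cell library per condition. Hosts are therefore known only by the lack of eGFP UMIs, and each library mixes the node, streak, epiblast, mesoderm and endoderm that happened to lie in the dissected piece.

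At HH4, the chick primitive streak is at full length and ends in Hensen's node, the organiser. Node and anterior streak express targets of Nodal signalling and secreted inhibitors of BMP and Nodal, such as Chordin, Lefty and Cerberus. As the node regresses, the streak takes on posterior identity, in which the caudal homeobox genes CDX1, CDX2 and CDX4 are followed by HOX genes of increasing paralogue number, while ingressed paraxial mesoderm begins to make retinoic acid through RDH10 and ALDH1A2.

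With a single library for each condition and no replication among its cells, the conditions could not be tested against each other, and differences are described by their size without p-values. For each gene, the UMIs of all host cells in a library were added up and scaled to a total of 1000000, giving counts per 1000000 (CPM). Intervals are exact 95% intervals and cover counting error only. Log2 ratios were taken after adding 10 CPM to both levels, which pulls the ratios of low genes towards 0, whereas fold differences are ratios of the CPM themselves. A gene was compared if it had at least 100 UMIs over both groups and was called different at 2-fold or more. The summed hosts held 4774959 UMIs in HH8-HH4 3 hr and 8002846 in HH4-HH4 3 hr, with medians of 20814 and 40141 UMIs per cell.

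The HH4-HH4 3 hr library stood apart from the other 3. Across the 3885 genes compared, its log2 levels correlated with r = 0.961 with HH8-HH4 3 hr, 0.970 with HH8-HH4 0 hr and 0.963 with HH4-HH4 0 hr, against 0.986 to 0.995 among the other libraries (across genes, which are not independent). It was also the smallest library, with 301 barcodes. In HH8-HH4 3 hr, only 409 of 943 barcodes (43.4%) reached 2000 UMIs. The 2 libraries shared 0 barcodes. Embryo pool, dissected region, stage reached by the hosts and the preparation of each library cannot be told apart from the type of graft. Cells with at least 500 CPM of HINTW, a gene of the female-specific W chromosome, made up 35.3% (29.2 to 41.9) of HH8-HH4 hosts and 48.1% (40.6 to 55.6) of HH4-HH4 hosts at 3 hr. At 0 hr they made up 45.0% (42.6 to 47.3) of HH8-HH4 and 18.8% (17.0 to 20.7) of HH4-HH4 hosts.

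Between the 3 hr hosts, 80 of 3885 genes (2.06%) were at least 2-fold higher beside HH8 grafts and 77 (1.98%) at least 2-fold lower, 157 (4.04%) in all. The median log2 ratio was 0.04 (SD across genes 0.48). Genes of the node list and the Nodal pathway were mostly higher beside HH8 grafts, while caudal and HOX genes, genes of retinoic acid metabolism and several WNT and Notch genes were lower. Between the 0 hr hosts, compared in the same way as background, 14 of 4473 genes (0.313%) were higher and 1 (0.0224%) lower, 0.335% in all, with an SD of 0.17. By this count the 2 graft types differed little at 0 hr, although their shares of HINTW-high cells differed. Within HINTW-high cells alone the 0 hr counts were larger, with 41 genes higher and 34 lower of 3857. Of the 80 genes higher at 3 hr, 69 lay within 1.5-fold at 0 hr, as did 52 of the 77 lower genes and 3834 of all 3885. The plot of the 3 hr ratio against the 0 hr ratio shows these genes spread along the 3 hr axis, with LEFTY1 and the caudal genes among those displaced at 0 hr in the opposite direction. The 0 hr ratio had the opposite sign in 49 of the 80 higher genes, 75 of the 77 lower genes and 2270 of all 3885. Across the 3885 genes, which are not independent, the 3 hr and 0 hr ratios correlated with r = -0.431.

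**Figure D1:**
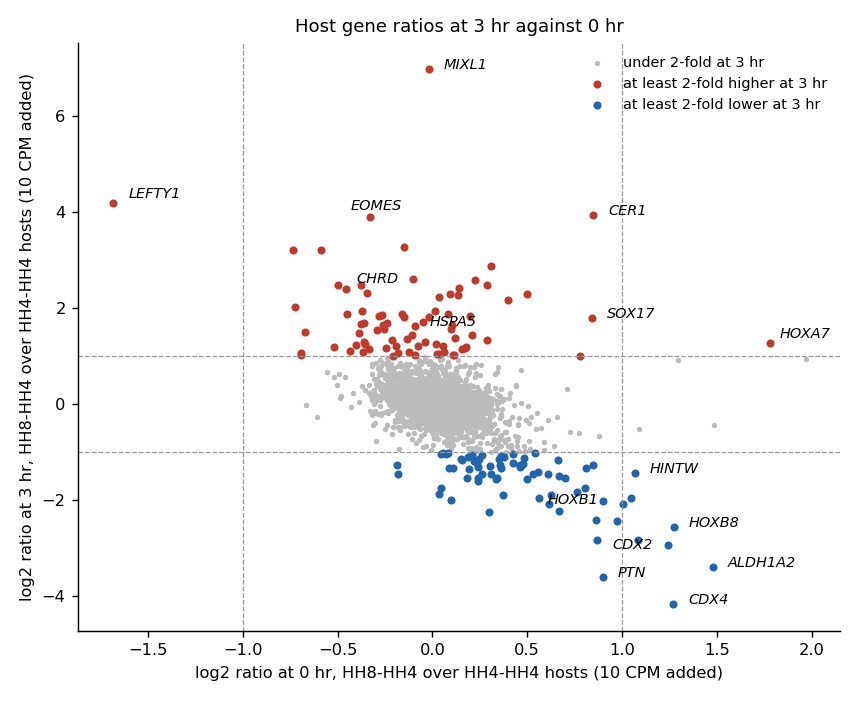
Log2 ratio of HH8-HH4 over HH4-HH4 host cells at 3 hr (vertical) against the same ratio at 0 hr (horizontal), 10 CPM added, 1 point per gene with at least 100 UMIs at both times; dashed lines mark 2-fold. MIXL1 lies at 6.97 at 3 hr and -0.02 at 0 hr, and CDX4 at -4.16 and 1.27.

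MIXL1, a homeobox gene of the streak that Nodal signalling induces, differed most. MIXL1 was at 2249 CPM in HH8-HH4 hosts and 7.997 CPM in HH4-HH4 hosts at 3 hr, 281-fold higher (220 to 365), against 1620 CPM in HH8-HH4 and 1642 CPM in HH4-HH4 hosts at 0 hr. MIXL1 was thus close to its 0 hr level beside HH8 grafts and near absent beside HH4 grafts. EOMES, a T-box factor of the anterior streak and endoderm, was at 378 CPM in HH8-HH4 hosts and 15.99 CPM in HH4-HH4 hosts (23.6-fold higher, 19.7 to 28.5), with 267 and 338 CPM in the same order of grafts at 0 hr. LEFTY1, a secreted Nodal inhibitor that Nodal itself induces, was at 287 CPM in HH8-HH4 hosts and 6.25 CPM in HH4-HH4 hosts (46.0-fold higher, 34.7 to 62.3). At 0 hr the order of LEFTY1 was the reverse, with 48.05 CPM in HH8-HH4 and 177 CPM in HH4-HH4 hosts. CER1, which encodes the Nodal and BMP antagonist Cerberus, was at 160 CPM in HH8-HH4 hosts and 1.12 CPM in HH4-HH4 hosts, or 763 UMIs against 9. At 0 hr CER1 had 5158 of the 16219752 UMIs of HH8-HH4 hosts and 4587 of the 26630238 UMIs of HH4-HH4 hosts. Beside HH8 grafts CER1 was thus lower at 3 hr than at 0 hr. In each of these genes HH4-HH4 at 3 hr was the lowest of the 4 libraries, as the plot of levels in all libraries shows.

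**Figure D2:**
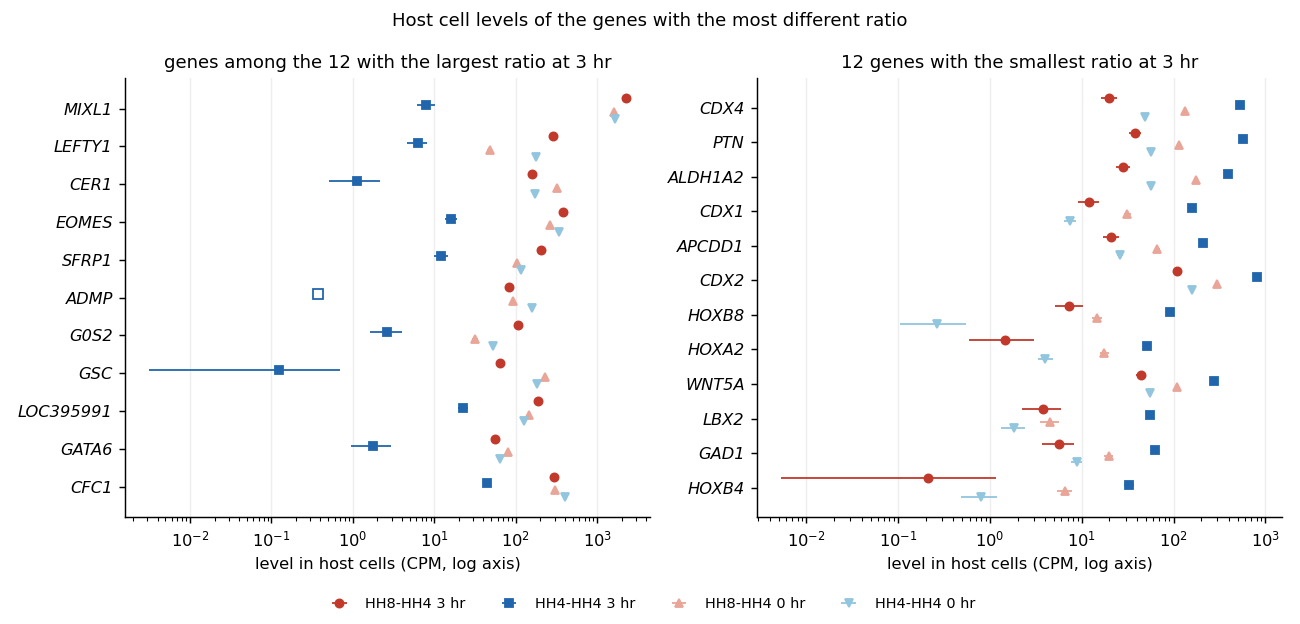
Levels in host cells (CPM, log axis) of genes among the 12 with the largest ratio at 3 hr (left) and of the 12 with the smallest (right) in the 4 libraries, with exact 95% Poisson intervals for counting error; the open square marks 0 UMIs of ADMP, drawn at the level of 3 UMIs. For MIXL1 the HH8-HH4 3 hr point lies at 2249 CPM, the HH4-HH4 3 hr point at 7.997 and both 0 hr points at 1620 and 1642.

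MIXL1, EOMES, LEFTY1 and CER1 also belong to a list of the Nodal pathway. Of its 10 compared genes, 7 were at least 2-fold higher and 0 lower, with a median log2 ratio of 2.74 against 0.04 over all genes. GSC, a homeobox gene of the organiser, had 306 UMIs (64.1 CPM) in HH8-HH4 hosts and 1 UMI (0.12 CPM) in HH4-HH4 hosts, a ratio of 513 with a counting interval from 91.4 to 20331. At 0 hr GSC had 3660 of the 16219752 UMIs of HH8-HH4 hosts and 4794 of the 26630238 UMIs of HH4-HH4 hosts. Beside HH8 grafts GSC was thus lower at 3 hr than at 0 hr. CFC1, the EGF-CFC co-receptor that Nodal needs to signal, was at 291 and 43.9 CPM (6.64-fold higher, 5.90 to 7.48). The 3 members under 2-fold were GDF3, a Nodal-related ligand, with a log2 ratio of 0.93, and the activin receptors ACVR2A (0.18) and ACVR2B (-0.20). These activin receptors thus lay near equal levels, whereas the co-receptor gene CFC1 differed, as did the targets and inhibitors given above.

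All 8 compared genes of the list for Hensen's node were at least 2-fold higher beside HH8 grafts (median log2 ratio 2.68, against -0.09 at 0 hr). SHH, the remaining member, had too few UMIs to be compared. MIXL1, EOMES, CER1, GSC and CFC1 are on this list and on that of the Nodal pathway, so that the lists overlap. Other genes of the node were not on the node list. Of those given below, FOXA2, LHX1 and FOXD3 were higher, whereas GNOT2, on the early neural list, was lower in value (log2 ratio -0.86). CHRD, which encodes the BMP antagonist Chordin, was at 1647 CPM in HH8-HH4 hosts and 305 CPM in HH4-HH4 hosts (5.41-fold higher, 5.17 to 5.66), with 435 and 599 CPM at 0 hr. CHRD beside HH8 grafts was thus above both 0 hr levels. STK26, a kinase gene on the node list, was at 820 and 215 CPM (log2 ratio 1.88), and HHEX, a homeobox gene of anterior endoderm, at 48.2 and 1.87 CPM (2.29). ADMP, a BMP-like ligand made by the organiser, had 394 UMIs (82.5 CPM) in HH8-HH4 hosts and 0 in HH4-HH4 hosts, at least 220-fold higher when 3 UMIs are taken as the floor. At 0 hr ADMP was at 92.2 CPM in HH8-HH4 and 160 CPM in HH4-HH4 hosts.

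Among modulators of BMP signalling, CHRD and FST, which encodes the activin and BMP antagonist Follistatin, were the 2 inhibitors of 5 that were at least 2-fold higher. FST was at 58.7 and 11.2 CPM (log2 ratio 1.69). Of 4 BMP ligands only ADMP passed 2-fold. BMP2 (log2 ratio 0.32) and BMP4 (-0.89) did not, and none of 6 receptors and SMADs did, with a lowest ratio of -0.33 and a highest of 0.18. Of 6 BMP targets, GATA2, a factor of ventral and non-neural cells, was higher, at 45.0 CPM in HH8-HH4 hosts and 2.25 CPM in HH4-HH4 hosts, whereas ID1 (-0.48), ID2 (-0.16), ID3 (0.64) and MSX1 (-0.65) were within 2-fold.

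Genes of definitive endoderm were also higher. Of 7 endoderm genes, 5 passed 2-fold and 0 were lower. SOX17, an HMG-box factor of endoderm, was at 207 CPM in HH8-HH4 hosts and 52.7 CPM in HH4-HH4 hosts (3.93-fold higher, 3.50 to 4.41), both below the 466 CPM in HH8-HH4 and 256 CPM in HH4-HH4 hosts at 0 hr. SOX17 was found in few cells: after each was thinned to 2000 UMIs, 10.3% of HH8-HH4 hosts and 2.21% of HH4-HH4 hosts had one. In HH4-HH4 hosts, 395 SOX17 UMIs lay in 3 cells that scored highest for endoderm, against 891 in 19 such HH8-HH4 hosts. The score is described below. EZR, which links the membrane to actin in epithelia, was at 214 and 84.0 CPM, and KRT7, a keratin of epithelia, at 43.4 and 16.6 CPM. The KRT7 ratio was at the limit (log2 ratio 1.00) and was -0.24 without the cells that had a HOXA7 or HOXB8 UMI. The GATA factors of mesendoderm and heart followed, with GATA6 at 56.1 and 1.75 CPM, GATA4 at 27.4 and 0.62 CPM and GATA5 at 36.5 and 7.12 CPM. FOXA2, a forkhead factor of node, notochord and endoderm (125 and 27.6 CPM), LHX1, a LIM homeobox gene of the organiser (68.5 and 6.12 CPM), and OTX2, a homeobox gene of anterior identity (37.3 and 2.37 CPM), had log2 ratios from 1.84 to 2.28. These 3 and GATA6 belong to a list of 25 compared early embryo factors, of which 6 were higher and 6 lower (median log2 ratio -0.27). MESP1, a bHLH factor of the earliest mesoderm on that list, was at 223 and 37.4 CPM, and FOXD3, a forkhead gene of node and later neural crest, at 128 and 23.9 CPM. Early neural genes divided: ANO3, SGK1, IGFBP2 and ENS-3 passed 2-fold (log2 ratios from 1.05 to 1.88), ERNI (0.79) and CA2 (-0.10) did not, and GNOT2, a node and notochord homeobox gene, was lower in value at 225 CPM in HH8-HH4 hosts and 417 CPM in HH4-HH4 hosts (-0.86).

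Posterior genes ran the other way. CDX4 had the smallest ratio of all genes compared, at 19.9 CPM in HH8-HH4 hosts and 525 CPM in HH4-HH4 hosts at 3 hr (26.4-fold lower, 21.5 to 32.6), and at 132 and 48.7 CPM at 0 hr, where HH8-HH4 hosts were the higher. CDX2 was at 108 CPM in HH8-HH4 hosts and 819 CPM in HH4-HH4 hosts (7.61-fold lower, 6.95 to 8.34), with 299 and 159 CPM at 0 hr. CDX1 was at 11.9 and 158 CPM (13.3-fold lower, 10.2 to 17.6), with 31.2 and 7.44 CPM at 0 hr. All 3 caudal genes were highest in HH4-HH4 hosts at 3 hr, and in HH8-HH4 hosts they were lower at 3 hr than at 0 hr.

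Of 10 compared HOX genes, 8 were at least 2-fold lower beside HH8 grafts, 1 was higher and HOXA6 was within 2-fold (log2 ratio -0.91). The median log2 ratio was -1.87, against 0.62 for the same genes at 0 hr. HOX genes of the HH8 graft, such as HOXA7 and HOXB8, are among them, and the part of donor RNA was not tested. HOXB1, the most abundant and the earliest of the HOXB genes, was at 196 CPM in HH8-HH4 hosts and 715.5 CPM in HH4-HH4 hosts (3.65-fold lower, 3.41 to 3.92), with 326 and 188 CPM at 0 hr. HOXB4 had 1 UMI in HH8-HH4 hosts and 263 in HH4-HH4 hosts, 157-fold lower with a counting interval from 27.9 to 6219. HOXA2 had 7 and 412 UMIs, HOXA5 had 5 and 263 and HOXD4 had 4 and 173. HOXA4 was at 3.98 and 42.9 CPM and HOXB5 at 1.47 and 19.5 CPM. The compared HOX genes of paralogue groups 1, 2, 4, 5 and 8 were thus lower beside HH8 grafts. A further 6 HOX genes had too few UMIs to be compared. The limit was set on UMIs summed over both groups, and HH4-HH4 hosts held more UMIs in all. HOXB4, HOXA2, HOXA5 and HOXD4 reached it almost only through their HH4-HH4 UMIs. The limit thus favoured HOX genes that were high in HH4-HH4 hosts. The share of lower genes and the median of -1.87 describe only the genes that reached it.

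HOXA7 and HOXB8 mark HH8 donor tissue, and their UMIs among hosts bear on how pure the hosts are. HOXA7 was the HOX gene higher beside HH8 grafts, at 20.3 CPM in HH8-HH4 hosts and 2.50 CPM in HH4-HH4 hosts. The 20.3 CPM equal 1.85% of the 1100 CPM of HOXA7 in the eGFP-positive cells of that library, and 1.13% of the 1794 CPM in cells with at least 3 eGFP UMIs. Of 232 HH8-HH4 hosts, 61 (26.3%) had a HOXA7 UMI, 47 of them just 1, and 3 cells held 28.9% of the UMIs. A single cell held 24 of the 97 UMIs. In HH4-HH4 3 hr, 7 of 181 hosts (3.87%) had one. After thinning to 2000 UMIs the shares were 5.17% of HH8-HH4 hosts and 0 of 181 HH4-HH4 hosts (exact upper limit 2.02%). HOXB8 was at 7.33 CPM in HH8-HH4 hosts (1.20% of the level in eGFP-positive cells and 0.734% of that in cells with at least 3 eGFP UMIs) and 92.3 CPM in HH4-HH4 hosts. At 0 hr, 17.9% of HH8-HH4 hosts had a HOXA7 UMI, against 0.0567% of HH4-HH4 hosts. HOXA7 was then at 24.5 CPM in HH8-HH4 hosts and HOXB8 at 14.8 CPM. These were 1.09% and 1.38% of the levels in eGFP-positive cells of that library. The part of free donor RNA and of donor cells without an eGFP UMI in these counts was not tested. At 3 hr, the ratio was also taken without the cells that had a UMI of either gene (80 HH8-HH4 and 73 HH4-HH4 hosts). Then 68 genes were higher and 77 lower, and 120 of the 157 genes were again past 2-fold in the same direction. All 73 of these HH4-HH4 hosts had a HOXB8 UMI, and HOXB8 is itself a gene that differed, so that leaving them out also removes HOXB8-positive host cells and is no measure of purity.

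**Figure D3:**
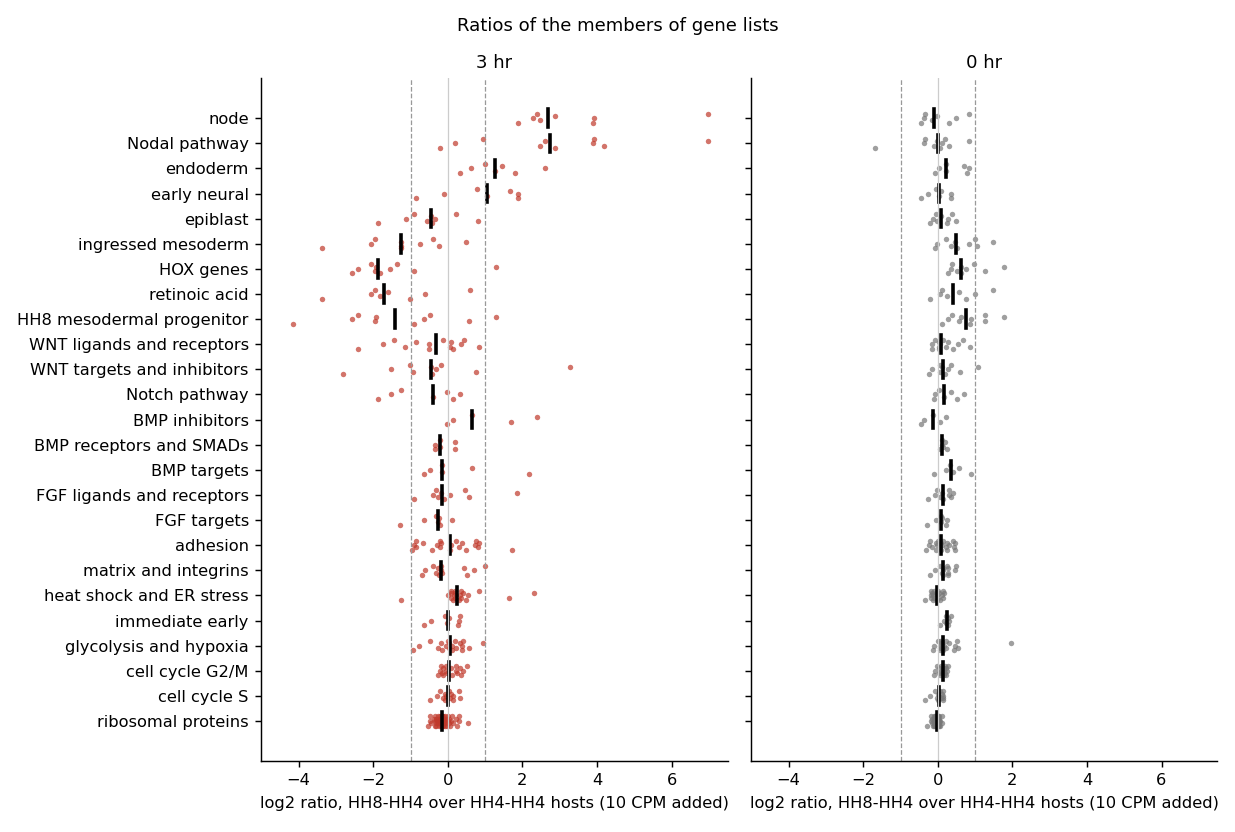
Log2 ratios of HH8-HH4 over HH4-HH4 host cells (10 CPM added) for the compared members of gene lists at 3 hr (left) and, for the same genes, at 0 hr (right); points are genes, black bars list medians and dashed lines 2-fold. Node and Nodal genes have medians of 2.68 and 2.74 at 3 hr, and HOX and retinoic acid genes of -1.87 and -1.71.

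Genes of a retinoic acid list were lower as a group: 6 of 8 were at least 2-fold lower and 0 higher (median log2 ratio -1.71). The list holds genes of retinoic acid metabolism and uptake, receptors, a binding protein and a target. ALDH1A2, which makes retinoic acid from retinal, was at 28.1 CPM in HH8-HH4 hosts and 387 CPM in HH4-HH4 hosts (13.8-fold lower, 11.6 to 16.5), with 177 and 57.1 CPM at 0 hr. RDH10, the retinol dehydrogenase of the preceding step, was at 40.2 and 201 CPM. STRA6, a retinol uptake receptor, was at 22.0 and 113 CPM, DHRS3, a retinal reductase that retinoic acid induces, at 10.1 and 50.7 CPM, and the retinoic acid receptor RARB at 1.05 and 12.2 CPM. The list's sixth lower gene was HOXB1, a direct target of retinoic acid that is also counted among the HOX genes. RARA (log2 ratio -0.63) and CRABP1, a binding protein (0.59), were within 2-fold.

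Of 10 genes of ingressed mesoderm, 6 were at least 2-fold lower. MSGN1, a bHLH factor that paraxial cells switch on as they ingress, was at 475 CPM in HH8-HH4 hosts and 1158 CPM in HH4-HH4 hosts (2.44-fold lower, 2.33 to 2.55). MEOX1, a homeobox gene of somites and the presomitic mesoderm near them, was at 26.0 and 130 CPM, TCF15, a bHLH factor of the same cells, at 36.2 and 101 CPM, and the Notch ligand gene DLL1 at 331 and 806 CPM. TBX6 (log2 ratio -0.39), CXCL14 (-0.23) and AGRP (0.48) did not differ by 2-fold. Of 11 genes on a list for the whole primitive streak, 2 were higher (MIXL1 and EOMES) and 4 lower (WNT5A, WNT8A, CDX2 and CDX4), with a median log2 ratio of -0.40. Brachyury (T), the T-box gene of the whole streak, was at 2005 CPM in HH8-HH4 hosts and 1176 CPM in HH4-HH4 hosts (0.76).

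Signalling genes that accompany the posterior streak were lower in part. Of 14 WNT ligands and receptors, 4 were at least 2-fold lower and 0 higher: WNT5A was at 44.2 CPM in HH8-HH4 hosts and 276 CPM in HH4-HH4 hosts (6.25-fold lower, 5.42 to 7.23), WNT5B at 73.5 and 268 CPM, WNT8A at 128 and 365 CPM and the receptor gene FZD10 at 19.9 and 56.9 CPM. WNT3A (log2 ratio -0.50) and WNT11 (-0.86) were within 2-fold. Secreted WNT antagonists split by member, with SFRP1 at 207 CPM in HH8-HH4 hosts and 12.2 CPM in HH4-HH4 hosts (16.9-fold higher, 13.7 to 21.0). SFRP2 was lower, at 54.3 and 176 CPM, as was FRZB, at 48.0 and 107 CPM. APCDD1, a membrane inhibitor that WNT signalling induces, was at 20.7 and 208 CPM, whereas the targets AXIN2 (-0.42), LEF1 (-0.94) and SP5 (-0.31) were within 2-fold. Of 7 Notch genes, DLL1, NOTCH1 (95.1 and 293 CPM) and the effector gene HES5 (6.29 and 49.6 CPM) were lower. Among 10 FGF ligands and receptors, FGF18 was higher, at 265 and 65.5 CPM, while FGF8 (-0.40), FGF4 (0.46) and FGFR1 (-0.32) were not past 2-fold. Of 7 FGF targets, ETV1, an ETS factor, was lower, at 29.5 and 87.1 CPM.

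PTN, which encodes the heparin-binding growth factor pleiotrophin, had the second smallest ratio, at 38.1 CPM in HH8-HH4 hosts and 571 CPM in HH4-HH4 hosts (15.0-fold lower, 12.9 to 17.5). Among genes of epiblast and neural plate, GBX2, a homeobox gene of posterior neural tissue (89.5 and 206 CPM), PDGFA, a growth factor of the epiblast (21.4 and 106 CPM), and SOX2, an HMG-box factor of the neural plate (8 and 139 UMIs), were lower, while SOX3 (log2 ratio -0.36) was within 2-fold. LIN28A, a developmental timing gene that blocks let-7 maturation, was at 117 CPM in HH8-HH4 hosts and 293 CPM in HH4-HH4 hosts. Other genes of the 12 smallest ratios were LBX2, a homeobox gene (3.77 and 55.2 CPM), and GAD1, which makes GABA (5.66 and 63.2 CPM). G0S2, an inhibitor of lipolysis, was among the 12 largest, at 107 CPM in HH8-HH4 hosts and 2.62 CPM in HH4-HH4 hosts, as was the endoderm list member LOC395991, at 187 and 22.6 CPM.

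Markers of other cell types that the dissected region could hold were also counted. Of the heart list only GATA4 had enough UMIs to be compared, and it was higher as described. The heart genes NKX2-5 and TBX20 had 0 UMIs in either group, TNNT2 had 19 in HH8-HH4 and 14 in HH4-HH4 hosts, and HAND2 had 4 and 0. The globin gene HBE had 38 and 40 UMIs, and HBZ, HBBA and HBA1 had at most 2. Of 3 compared blood and endothelium genes, LMO2, a factor of blood progenitors, was lower at 8.59 CPM in HH8-HH4 hosts and 44.5 CPM in HH4-HH4 hosts, GATA2 was higher as described, and the endothelial receptor gene KDR was within 2-fold (log2 ratio 0.47).

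Groups tied to general cell function had few genes past 2-fold. Over all genes compared the share was 4.04%, so that lists this short would hold few at that share. None of 18 G2/M genes, 14 S phase genes, 54 ribosomal protein genes, 20 genes of glycolysis and hypoxia, 8 immediate early genes or 13 matrix and integrin genes was past 2-fold, and the medians of these lists ran from -0.18 to 0.07. Of 21 adhesion genes, CLDN3, a tight junction gene, was higher (89.0 and 20.2 CPM), whereas CDH1 (log2 ratio 0.23) and CDH2 (-0.30), the cadherins of epithelium and mesenchyme, were within 2-fold. Of 20 heat shock and endoplasmic reticulum genes, HSPA5, the main chaperone of the endoplasmic reticulum, was at 1439 CPM in HH8-HH4 hosts and 459 CPM in HH4-HH4 hosts (3.14-fold higher, 3.01 to 3.27), with 662 and 707 CPM at 0 hr. HSPA2, a heat shock protein gene, was at 303 and 52.5 CPM, and HSPB1, a small heat shock protein gene, was lower, at 32.3 and 91.8 CPM. In this list 18 of 20 members had a ratio above 0, with a median of 0.25, against a median of 0.04 over all genes compared. Of the 54 ribosomal protein genes, 42 had a ratio below 0, with a median of -0.15.

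To see whether the differences were spread over cells or carried by few, each cell was thinned to 2000 UMIs and the share of cells with at least 1 UMI was counted. MIXL1 was found in 74.6% (68.5 to 80.04) of HH8-HH4 hosts and 1.10% (0.13 to 3.93) of HH4-HH4 hosts, and CDX2 or CDX4 in 24.6% (19.2 to 30.6) and 81.2% (74.8 to 86.6). Unthinned, the shares were 94.4% and 27.6% for MIXL1 and 59.1% and 97.8% for CDX2 or CDX4. LEFTY1 was in 39.7% of HH8-HH4 and 1.10% of HH4-HH4 hosts, and HOXB1 or HOXB8 in 30.6% and 79.0%. MSGN1 differed less, at 38.4% (32.1 to 45.0) and 51.4% (43.9 to 58.9), with intervals that overlapped. Free RNA in droplets adds to such shares, and its part was not tested. HOXA7, a gene of the HH8 graft, had a UMI in 5.17% of the HH8-HH4 hosts at this depth, as given above.

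**Figure D4:**
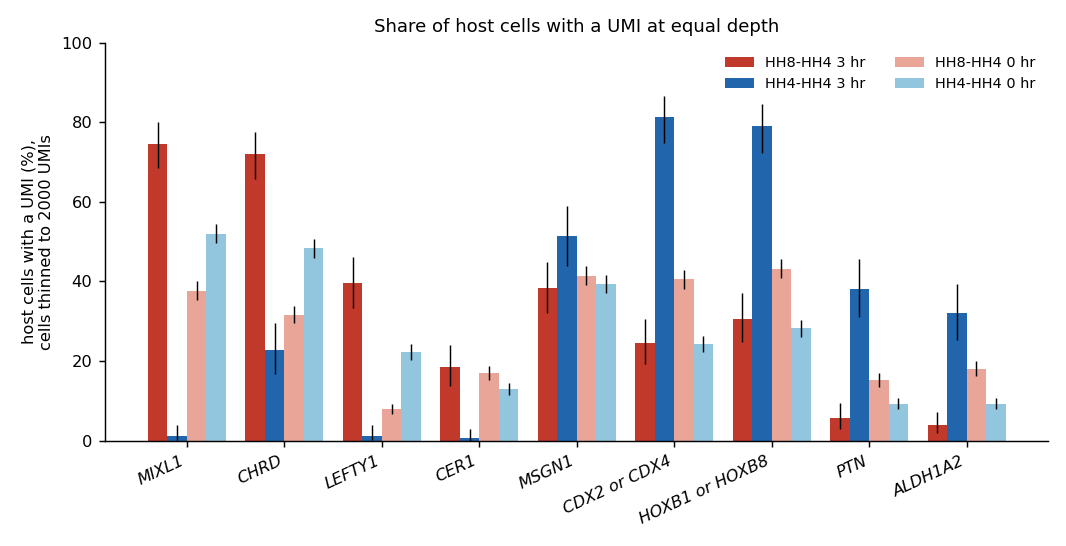
Share of host cells (%) with at least 1 UMI of a gene, or of either of 2 genes, after each cell was thinned to 2000 UMIs, in the 4 libraries; bars start at 0 and lines are exact 95% binomial intervals. MIXL1 stands at 74.6% and 1.10% and CDX2 or CDX4 at 24.6% and 81.2% in HH8-HH4 and HH4-HH4 hosts at 3 hr.

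Each host cell was scored for 5 lists (node, epiblast, ingressed mesoderm, endoderm, early neural) by its summed CPM relative to the mean of HH4-HH4 0 hr hosts and put in the class that scored highest. These classes are ranges of a score and not cell types. The node list is made of the genes described above, so that its share restates their levels. Of HH8-HH4 hosts at 3 hr, 128 of 232 (55.2%, 48.5 to 61.7) scored highest for node, against 0 of 181 HH4-HH4 hosts (exact upper limit 2.02%). At 0 hr the shares were 18.1% and 24.5%. Epiblast took 14.7% of HH8-HH4 and 39.8% of HH4-HH4 hosts and ingressed mesoderm 13.8% and 47.0%. Endoderm took 8.19% (19 cells) and 1.66% (3 cells). In these endoderm cells, SOX17 (2533 CPM in HH8-HH4 and 2906 CPM in HH4-HH4) and KRT7 (515 and 817 CPM) were not higher beside HH8 grafts. LOC395991 (1851 and 1295 CPM), EZR (708 and 618 CPM) and GATA5 (287 and 258 CPM) were higher in value. Of the 128 cells scored node, 44 had a second class within 1.5 times of the first, as did 18 of the 19 cells scored early neural. Their median depth was 11538.5 UMIs, against medians from 20399 to 26031 UMIs in the other classes of that library.

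Organiser genes were also found outside the node score. The 21 HH4-HH4 hosts scored early neural at 3 hr held 69.4% of that library's host CHRD UMIs, and the early neural list includes GNOT2. The lack of HH4-HH4 cells scored node thus does not show that organiser cells were absent. In HH4-HH4 hosts at 3 hr, 10 cells held 70.1% of the CHRD UMIs, at 5565 CPM, and GNOT2 was at 2593 CPM and FOXA2 at 352 CPM in them, against 330 and 14.7 CPM in the other 171 hosts. MIXL1 had 1 UMI in these 10 cells and GSC and ADMP had 0, which allows up to 9.77 CPM each. In the 10 HH8-HH4 hosts with most CHRD UMIs, CHRD was at 6508 CPM and FOXA2 at 388 CPM, with GNOT2 at 899 CPM and MIXL1 at 829 CPM. In the other 222 HH8-HH4 hosts FOXA2 was at 104 CPM and GNOT2 at 170 CPM, but MIXL1 was higher, at 2363 CPM. The 10 cells of each library were chosen by CHRD after its values were seen. Cells rich in CHRD and FOXA2 were thus found beside both types of graft, with MIXL1 beside HH8 grafts and nearly without it beside HH4 grafts. Beside HH8 grafts they held less MIXL1 than the other hosts of that library.

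Hosts were then compared within one class, which does not hold the class scores equal. The node list had a median of 1227 CPM in HH8-HH4 and 293 CPM in HH4-HH4 cells scored epiblast at 3 hr. In cells scored ingressed mesoderm it had 1077 and 354 CPM. Only epiblast (34 HH8-HH4 and 72 HH4-HH4 cells) and ingressed mesoderm (32 and 85 cells) had at least 20 cells in both libraries, and genes of the class lists were left out. Within epiblast, 27 of 3034 genes were at least 2-fold higher beside HH8 grafts and 73 lower, against 8 and 1 at 0 hr. Within ingressed mesoderm, 35 of 3013 were higher and 49 lower, against 9 and 2 at 0 hr. Of the 77 genes lower over all hosts, 58 were measured in epiblast, of which 42 were again at least 2-fold lower, and 54 in mesoderm, of which 35 were. Of the 80 higher genes, 30 and 34 were measured and 14 and 17 were again 2-fold higher.

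CDX4 was at 40.3 CPM in HH8-HH4 and 546 CPM in HH4-HH4 cells scored epiblast and at 38.3 and 445 CPM in those scored mesoderm, so that the difference was present in both classes. CDX2 kept a log2 ratio of -1.77 in epiblast and -2.19 in mesoderm, and WNT5A of -1.64 and -1.83. LEFTY1 was at 74.99 CPM in HH8-HH4 and 3.36 CPM in HH4-HH4 epiblast and at 421 and 8.50 CPM in mesoderm, and SFRP1 at 79.5 and 11.2 CPM and at 69.7 and 11.1 CPM. PTN differed mainly in 1 class. It had 94.3% of its HH4-HH4 UMIs in mesoderm, where PTN was at 111 CPM in HH8-HH4 and 1264 CPM in HH4-HH4 cells, against 28.0 and 52.3 CPM in epiblast. HOXB8 had a log2 ratio of -3.49 in epiblast and -0.73 in mesoderm, and SOX2 of -1.44 and 0.04. Among the named genes outside the class lists, 31 of the 32 lower and 18 of the 19 higher ones had the same sign in both classes. SOX2 was the exception among the lower genes, and ADMP, of the higher ones, was measured in epiblast alone. These signs were taken without a minimum of UMIs. The genes were named by their ratio over all hosts, which include the cells of both classes, so that the counts are no independent check. In epiblast, GATA2 and GATA4 each had 1 UMI in HH8-HH4 and 0 in HH4-HH4 cells. GATA6 (5 and 1 UMIs) and LHX1 (4 and 1) were there found in 1 HH8-HH4 cell each. Past 2-fold in both classes were 15 lower and 7 higher genes, as the plot within classes shows.

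**Figure D5:**
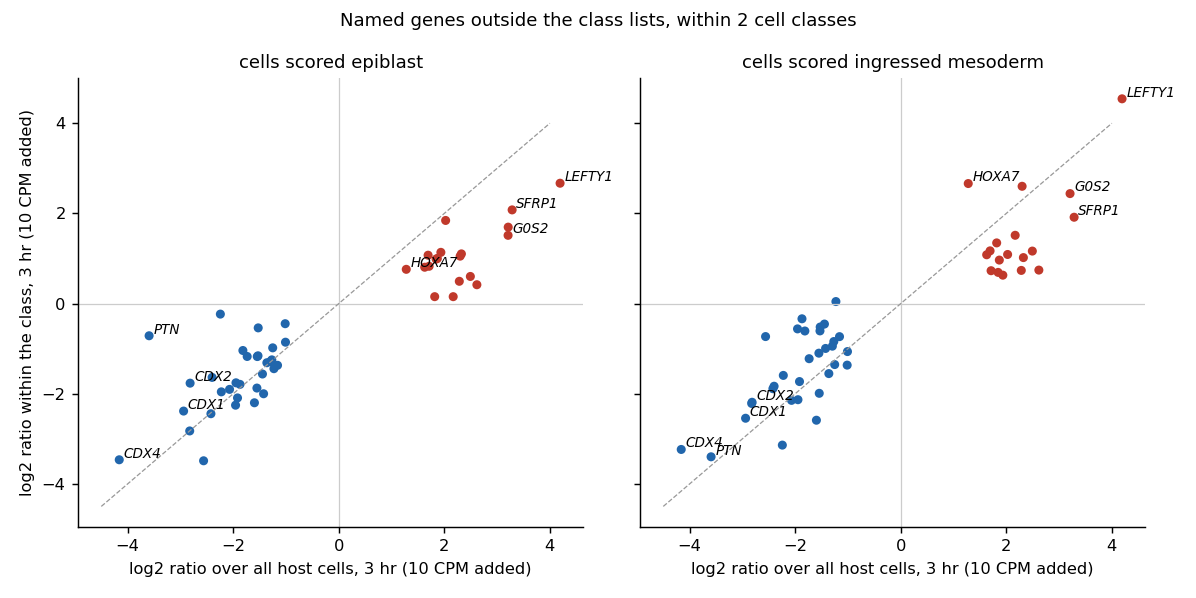
Log2 ratio at 3 hr (10 CPM added) of named genes outside the class lists within cells scored epiblast (left) and ingressed mesoderm (right), against the ratio over all host cells; points are genes, red where higher and blue where lower beside HH8 grafts, and the dashed line marks equal values. CDX4 lies at -3.47 in epiblast and -3.24 in mesoderm, and LEFTY1 at 2.67 and 4.54.

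Since the share of HINTW-high cells differed, the ratio was also taken within them and within the rest. All 75 other named genes had the same sign in HINTW-high cells (82 HH8-HH4 and 87 HH4-HH4) and in HINTW-low cells (150 and 94), and 65 and 72 of them were past 2-fold. These genes were named by their ratio over the same cells, so that the counts are no independent check. HINTW itself was at 2344 CPM in HH8-HH4 hosts and 6311 CPM in HH4-HH4 hosts. Of the HH8-HH4 cells scored node, 46.9% were HINTW-high at 3 hr and 0.319% at 0 hr, against 3.24% of those of HH4-HH4 at 0 hr.

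MIXL1 and CDX4 were also measured just outside the limits that define a host cell. In cells with exactly 1 eGFP UMI, which were counted as donor cells, MIXL1 was at 3144 CPM in HH8-HH4 (52 cells) and 6.69 CPM in HH4-HH4 (18 cells), and CDX4 at 20.4 and 503 CPM. Barcodes with 0 eGFP UMIs and fewer than 2000 UMIs numbered 418 in HH8-HH4 3 hr and 24 in HH4-HH4 3 hr. In those of HH8-HH4, HOXA7 was at 545 CPM, far above the 20.3 CPM of the hosts, with MIXL1 at 1853 CPM and CDX4 at 226 CPM. Over all eGFP-positive cells, MIXL1 was at 1353 CPM in HH8-HH4 and 322 CPM in HH4-HH4, and CDX4 at 345 and 405 CPM. These values include the cells with 1 eGFP UMI. In cells with at least 3 eGFP UMIs, MIXL1 was at 279 and 393 CPM and CDX4 at 556 and 383 CPM, so that the order of the donor cells turned round in both genes.

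The 3 hr libraries can each be set beside their own 0 hr hosts, a comparison that shares the 3 hr libraries with those above. HH8-HH4 hosts had 9 genes at least 2-fold higher (0.216%) and 26 lower (0.624%) at 3 hr than at 0 hr, of 4170 (0.839% in all). HH4-HH4 hosts had 75 higher (1.71%) and 80 lower (1.82%), of 4387 (3.53% in all). MIXL1 had a log2 ratio of 3 hr over 0 hr of 0.47 in HH8-HH4 and -6.52 in HH4-HH4 hosts. CHRD had 1.90 and -0.95, CDX4 had -2.24 and 3.19, and HSPA5 had 1.11 and -0.61. In HH8-HH4 hosts at 3 hr, CHRD and HSPA5 were above and CDX4 below their levels in each of the other 3 libraries.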

How the data were processed

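Single-cell suspensions were captured by droplet sequencing in 1 library per condition. The deposited values are UMI counts per gene and barcode, made by the authors with CellRanger 6.1.1 (file headers) and galGal6 (submitters' processing notes), with eGFP among the features, and are not normalized. For HH4-HH4 0 hr, 2 count matrices were deposited. They shared 2755 barcodes (of 3098 and 2757), so they were treated as 1 sample and only replicate 2 was used. Genes were compared where all libraries listed them (6939). Host UMIs were summed per library and scaled to 1000000, 10 CPM was added, and genes with at least 100 UMIs over both groups were compared.

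Genes named were the 12 largest and 12 smallest ratios, the 5 largest and 5 smallest differences between the 3 hr and 0 hr ratios among genes past 2-fold, and every list member past 2-fold, 76 in all, of which 1 is not reported here. The members and gene lists were chosen with earlier results of these data known, and the ribosomal list was taken from the names in the files. Ratios without added CPM and their counting intervals were tested on simulated data. These were independent Poisson counts, which the intervals assume, so that the spread between cells was not tested. The intervals of shares (Clopper-Pearson) and of levels (exact Poisson) were not tested on simulated data. UMIs of one cell are not independent of each other, so intervals cover counting error only. Doublets were not called. Alternatives changed the added CPM, filters, depth, scaling, cells kept and class weights. Python 3.11.15, numpy 2.4.6, scipy 1.17.1, pandas 2.3.3 and matplotlib 3.10.9 were used.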

Additional observations from a re-analysis of the deposited data

Results flagged for a closer look

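At 3 hr and 0 hr, 9 genes were past 2-fold in opposite directions between HH8-HH4 and HH4-HH4 hosts. Their differences, as the log2 ratio at 3 hr minus that at 0 hr, were -5.43 for CDX4, -4.86 for ALDH1A2, -4.18 for CDX1, -3.91 for APCDD1, -3.83 for HOXB8, -3.07 for RDH10, -3.01 for MEOX1 and -2.49 for HINTW, each higher beside HH8 grafts at 0 hr and lower at 3 hr. LEFTY1 ran the other way, with a difference of 5.88. HOXB8 is a gene of the HH8 graft, and its level in HH8-HH4 hosts at 0 hr was 14.8 CPM. This was 1.38% of its level in eGFP-positive cells of that library, and the part of donor RNA was not tested. With 1 library per condition, none of these differences was tested.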

How the results depend on the processing

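No paired analysis was possible because each condition was 1 library. At 3 hr, 80 genes were higher and 77 lower. With 1 CPM added in place of 10 these were 122 and 130, with 100 CPM added 21 and 15, and with cells thinned to 2000 UMIs 31 and 19 of 1310 genes. Equal weight was also given to the classes with at least 20 cells in both libraries, at 3 hr only epiblast and ingressed mesoderm. This left out the cells scored node, endoderm or early neural. There 37 genes were higher and 65 lower, so that higher genes were 36.3% of calls against 51.0%. At 0 hr, 14 were higher and 1 lower. With 1 CPM added 32 were higher, and with 100 CPM 3 were higher and 0 lower. With all 5 classes weighted equally 9 were higher, and in HINTW-low cells 3 were lower. In HINTW-high cells, an alternative chosen after seeing the data, 41 were higher and 34 lower of 3857 genes at 0 hr. At 3 hr, 56 were higher and 67 lower of 3196 genes in HINTW-high cells. The cause of these shifts was not tested.

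Without the cells scored node, also chosen after seeing the data, 56 genes were higher and 69 lower at 3 hr, and 109 of the 157 genes remained past 2-fold in the same direction. KRT7 (log2 ratio 1.00) was at -0.24 without cells that had a HOXA7 or HOXB8 UMI. The other named genes kept their sign under each of the 15 alternatives in which they were measured. As these genes were named by their ratio in the same data, a kept sign is no independent check. The node share of HH8-HH4 hosts at 3 hr was 47.4% after thinning. The early neural share was 0.676% without cells near the limit and 14.7% after thinning in HH8-HH4 hosts, and 19.9% after thinning in HH4-HH4 hosts. With 1 library per condition, no spread between embryos could be measured.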

Other observations

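Of the 157 genes past 2-fold at 3 hr, 86 were in no list. Among those lower beside HH8 grafts were the homeobox cofactor genes MEIS1, at 7.33 CPM in HH8-HH4 and 47.9 CPM in HH4-HH4 hosts, and MEIS2, at 2.93 and 27.5 CPM. NDP, a ligand of the WNT receptor FZD4, was at 1.68 and 37.1 CPM, WIF1, a secreted WNT inhibitor, at 1.47 and 32.5 CPM, and GLI2, a mediator of Hedgehog signalling, at 4.61 and 29.0 CPM. The growth regulator MYCN was at 52.8 and 147 CPM and SOX11, an HMG-box gene of neural progenitors, at 410.02 and 849 CPM. Among the higher genes were AREG, an EGF receptor ligand, at 57.6 and 2.12 CPM, and ELMO1, which acts in cell migration, at 151 and 19.9 CPM. Cytoskeletal genes among them were TUBB4B (1258 and 347 CPM), MYH9 (814 and 267 CPM) and ACTN1 (160 and 47.4 CPM). These genes were chosen after their values were seen.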
